A study of Mus musculus with 6 samples.

Results

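The BCL2 family decides whether a cell's mitochondria release cytochrome c and start apoptosis. Described here are 10 of its genes in mouse granulosa cells, the somatic cells that surround and feed the oocyte: the survival genes Bcl2, Bcl2l1 and Mcl1, the effector genes Bax and Bak1, and the BH3-only genes Bid, Bad, Bcl2l11, Bbc3 and Pmaip1. The members were taken by gene symbol from the deposited gene table, where all 10 were found, 1 row each, among 55860 genes. All 10 passed the filter on low counts that left 15227 genes for testing. Ovarian granulosa cells of 2 genotypes were compared: Il22r-/- mice, which lack a receptor for the cytokine interleukin-22, and Il22r+/+ mice, with 3 libraries per genotype. All cells had been isolated on a density gradient and kept for 12 h in DMEM-F12 medium with serum before RNA extraction. The labels used here name neither the deleted part of the receptor gene nor the strain and age of the mice, nor whether animals were pooled.

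In healthy cells the survival proteins hold the effectors BAX and BAK in check and bind BH3-only proteins. When BH3-only proteins accumulate or are activated, the effectors form pores in the mitochondrial outer membrane, and caspases follow. In the ovary most follicles are lost by atresia, in which granulosa cells die by apoptosis, and the balance of these genes has long been studied there. Protein levels, phosphorylation and cell death were not measured in these data, and transcripts alone were counted.

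The libraries held 14948187 to 18116413 counted reads in Il22r-/- and 17425229 to 17704556 in Il22r+/+. Il22ra1, which encodes the ligand-binding chain and was taken as the targeted gene, had 5, 2 and 0 reads in Il22r-/- libraries 1 to 3, against 1, 5 and 4 reads in Il22r+/+ libraries 1 to 3, too few to check the genotype labels. Replicate 3 of Il22r-/- stood farther from its group than any other library: the chi-square statistic per gene was 27 and 21.6 for its 2 pairs, 10.2 for the other Il22r-/- pair and 4.66 to 6.63 for the Il22r+/+ pairs. Granulosa markers were abundant, led by Inhba, Inha and Serpine2. The summed level of 12 genes was 6815 to 7507 CPM in Il22r-/-, against 7885 to 8532 CPM in Il22r+/+ (CPM, read counts put on a common library size with TMM scaling). The aromatase gene Cyp19a1, singled out after its values were seen, was not tested. It had 1 read in all Il22r-/- libraries and 36 in all Il22r+/+ libraries, 25 of them in Il22r+/+ replicate 3. Of the 12 granulosa markers 11 were tested, of which 4 rose (Inhba, Amhr2, Nr5a2 and Fshr) and 3 fell (Foxl2, Nr5a1 and Serpine2). Fshr went the other way from Cyp19a1, with 313 reads in all Il22r-/- libraries and 13 in all Il22r+/+ libraries. The markers thus showed no common direction.

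Markers of other cells differed between the genotypes and stand beside every result that follows. Of 10 macrophage markers 9 were tested and all 9 rose, with a summed level of 28.4 to 87.2 CPM in Il22r-/-, against 8.83 to 11.6 CPM in Il22r+/+ (Lyz2, Csf1r and Cd68 the most abundant). Of 5 ovarian surface markers 3 were called lower (Upk1b, Msln and Upk3b, the most abundant) and none higher. Their sum was 10.6 to 24.8 CPM in Il22r-/-, against 223 to 229 CPM in Il22r+/+. The other 2, Krt7 and Krt19, were not called and had log2 changes of 0.98 and 0.67, so the list had no common direction. Theca and stroma markers, led by Col3a1, Dcn and Col1a1, summed to 226 to 385 CPM in Il22r-/-, against 682 to 703 CPM in Il22r+/+, with 1 of 6 tested higher and 2 lower. Col3a1 and Dcn were the lower genes. Col1a2, named after its values were seen, was the higher gene, with 3319 reads in all Il22r-/- libraries and 82 in all Il22r+/+ libraries. Tcf21, not tested, had 72 reads in all Il22r-/- libraries. Smooth muscle markers, led by Acta2, Actg2 and Myh11, summed to 354 to 574 CPM in Il22r-/-, against 261 to 314 CPM in Il22r+/+, with 4 of 5 higher. Endothelial markers (Pecam1, Cdh5 and Kdr leading) stayed at 2.17 to 5.34 CPM in Il22r-/-, against 0.358 to 0.948 CPM in Il22r+/+, and both tested of 5 rose. Oocyte markers (Gdf9, Zp3 and Bmp15 leading) stayed at 0.197 to 1.76 CPM in Il22r-/-, against 0.355 to 0.877 CPM in Il22r+/+, with 1 of 5 tested and not called. No listed marker was at 0 in all 6 libraries, although Tcf21, Tie1, Emcn and Nlrp5 had no read in Il22r+/+. Their part in the results was not tested, and in bulk RNA fewer cells of a type and less RNA per cell cannot be told apart.

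Across the family the survival gene Bcl2l1 showed the largest difference among the well-expressed members, being 2.64-fold lower in Il22r-/-, and Bcl2 was also lower while Mcl1 was not called. The BH3-only genes divided: Bid and Bcl2l11 rose, Bbc3 and Pmaip1 fell, and Bad was not called. Of the effectors Bax fell slightly and Bak1 was not called. In all, 2 of the 10 members were called higher and 5 lower in Il22r-/- (quasi-likelihood test of edgeR, adjusted p under 0.05 after Benjamini-Hochberg adjustment across the whole table). In the same test 45.7% of all 15227 genes were called, 23.6% higher and 22.1% lower, so a call was common in this comparison. Scaled by library size alone, 63.6% of all calls were higher instead of 51.6%, the median of all genes lay at a log2 change of 0.13 instead of 0.03, and the members called were 2 higher and 4 lower. The median log2 change of the members was -0.21. In 8 of the 10 the libraries of the genotypes did not overlap in CPM, against 56% of all tested genes. Without replicate 3 of Il22r-/-, 2 members were called higher and 6 lower.

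Per length, Mcl1 was the most abundant member in both genotypes, with 76.1 ± 2.59 FPKM in Il22r-/- and 85.3 ± 0.465 FPKM in Il22r+/+ (FPKM, the deposited counts per exon length and rescaled library total, mean ± SD, n = 3 each). In Il22r-/- it was followed by Bax (47.3), Bak1 (20.3), Bcl2l1 (18.2), Bbc3 (9.92), Bad (9.57), Bid (8.02), Bcl2l11 (2.34), Bcl2 (1.10) and Pmaip1 (0.669 FPKM), in this order. In Il22r+/+ the order was Mcl1, Bax (58.5), Bcl2l1 (48.9), Bak1 (22.2), Bbc3 (14.5), Bad (9.52), Bid (5.18), Pmaip1 (2.16), Bcl2 (1.86) and Bcl2l11 (1.38 FPKM). Bcl2l1 thus stood above Bak1 in every Il22r+/+ library and below it in every Il22r-/- library. Neighbours whose libraries overlapped were Bbc3 and Bad, and Bad and Bid, in Il22r-/-, and Pmaip1 and Bcl2 in Il22r+/+. The order rests on the length of all annotated exons, which ran from 1576 bases for Bax to 9157 bases for Bcl2, and a shorter transcript in use would raise the level of its gene.

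**Figure D1:**
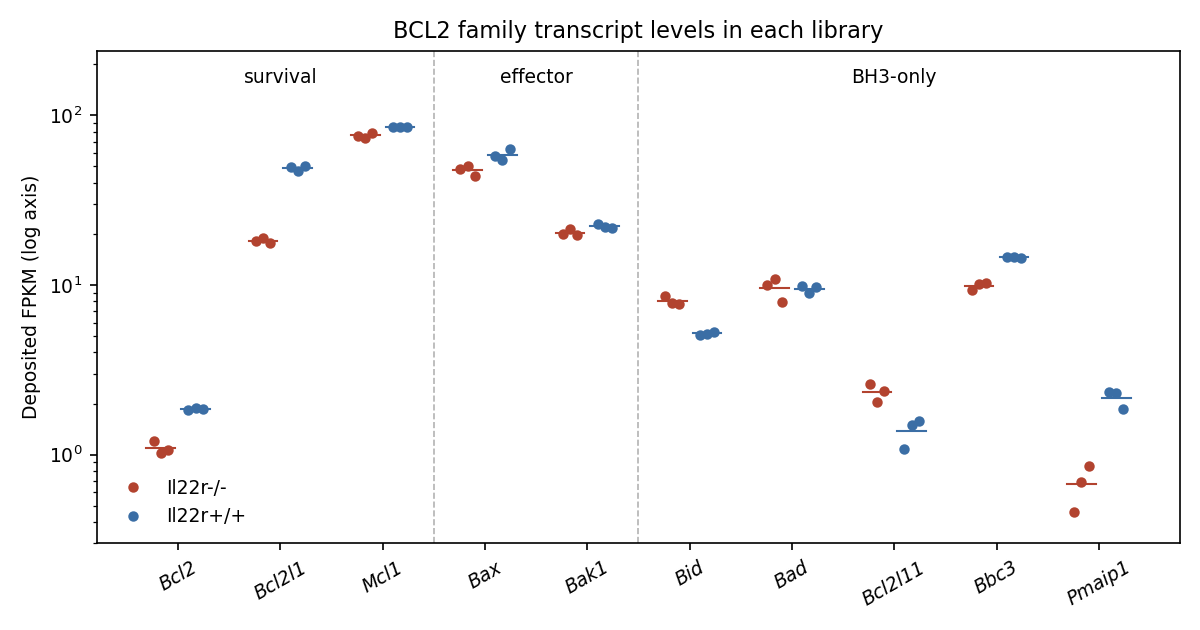
Deposited FPKM (log axis) of the 10 members in each library, Il22r-/- left of Il22r+/+ for each gene; points are libraries and lines are means of 3. Bcl2l1 shows the widest gap among the genes above 10 FPKM, at 17.6 to 18.98 FPKM in Il22r-/- and 47.2 to 49.95 FPKM in Il22r+/+.

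Bcl2l1 (ENSMUSG00000007659, mm10 chromosome 2, 152780668 to 152831728, minus strand) encodes BCL-XL, a survival protein of the outer mitochondrial membrane. It had 82.8, 86.3 and 79.1 CPM in Il22r-/- libraries 1 to 3, against 221, 211 and 223 CPM in Il22r+/+ libraries 1 to 3. The groups were far apart compared with their spread, which was 4.35% of the mean in Il22r-/- and 2.91% in Il22r+/+. The log2 change was -1.40 ± 0.07 (SE), with a 95% interval of -1.56 to -1.24 and an edgeR adjusted p of 4.16e-07. All 16 alternative settings called it lower, at log2 changes between -1.44 and -1.30. Counts were taken per gene, so the long and short products that splicing makes from Bcl2l1 were not separated.

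Because Bcl2l1 is a textbook target of STAT3, the transcription factor that interleukin-22 activates, its promoter was read. The RefSeq (GRCm38.p6) promoter windows used here cover 9 of the 10 members, all but Pmaip1, with 15 transcription starts in all. Each window was searched over the 250 bases before the start, on both strands, for the STAT letters TTCNNNGAA. None of the 15 held them, against 7.02% of all 32851 such windows. So few windows cannot tell this absence from that share. Only 250 bases and a single spacing were searched, so a lack of the letters does not show a lack of binding. The Bcl2l1 window below lies before its most upstream start, at chr2:152831729-152831978 on the minus strand, and is shown because Bcl2l1 is the well-expressed member with the largest change. No letters are in capitals since none matched.
Bcl2l1: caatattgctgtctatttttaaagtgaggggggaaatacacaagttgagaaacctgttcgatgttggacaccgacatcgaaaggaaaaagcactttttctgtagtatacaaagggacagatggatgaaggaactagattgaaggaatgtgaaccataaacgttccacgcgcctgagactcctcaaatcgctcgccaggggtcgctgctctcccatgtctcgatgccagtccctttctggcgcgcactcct

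Bcl2 (ENSMUSG00000057329, chromosome 1, 106538178 to 106714274, minus strand), the founding survival gene of the family, was scarce in these cells. It had 11.03, 9.34 and 9.59 CPM in the Il22r-/- libraries, against 16.3, 16.8 and 16.5 CPM in the Il22r+/+ libraries. The highest Il22r-/- value lay well below the lowest Il22r+/+ value. The log2 change was -0.73 ± 0.12 (95% interval -1.00 to -0.46, edgeR adjusted p = 0.000734), and all 16 alternatives called it lower. On the log2(FPKM + 1) scale, which shrinks the change of low genes, it was -0.44. An antisense transcript, D630008O14Rik, overlaps 6.09% of the Bcl2 exon length and had no read in any library.

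Mcl1 (ENSMUSG00000038612, chromosome 3, 95658788 to 95663176, plus strand) encodes a short-lived survival protein. It had 258, 249.9 and 265 CPM in Il22r-/-, against 284, 283 and 284 CPM in Il22r+/+. Although the groups did not overlap, the log2 change of -0.14 ± 0.07 did not pass the test (95% interval -0.30 to 0.02, edgeR adjusted p = 0.131). A fall to the size seen for Bcl2 lies outside that interval. Without replicate 3 of Il22r-/- Mcl1 passed, with a log2 change of -0.18 and an edgeR adjusted p of 0.0189. With library size alone its log2 change was -0.04, with an edgeR adjusted p of 0.683, the highest of the 16 alternatives.

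The make-up of the survival genes therefore differed. Of the summed FPKM of the 3 genes, Mcl1 held 79.7% ± 1.12 in Il22r-/- and 62.7% ± 0.568 in Il22r+/+. The Bcl2l1 share was 19.1% ± 1.11 in Il22r-/-, against 35.9% ± 0.601 in Il22r+/+. The Bcl2 share was 1.15% ± 0.101 in Il22r-/- and 1.36% ± 0.0345 in Il22r+/+. The sum itself was 95.4 ± 1.93 FPKM in Il22r-/- and 136 ± 1.96 FPKM in Il22r+/+. These shares restate the levels above and were not tested.

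Bax (ENSMUSG00000003873, chromosome 7, 45461697 to 45466898, minus strand) encodes the effector that moves from the cytosol to mitochondria. It had 75.8, 78.4 and 67.7 CPM in Il22r-/-, against 87.9, 83.9 and 97.5 CPM in Il22r+/+. The groups did not overlap, but the nearest libraries lay only a few CPM apart. The log2 change of -0.28 ± 0.09 was called (95% interval -0.47 to -0.09, edgeR adjusted p = 0.0211). The call ended in 5 of 16 alternatives, with adjusted p-values between 0.00896 and 0.125 over all of them. These 5 were library size alone (log2 change -0.17), the replicate block, limma on unfiltered FPKM, and leaving out Il22r+/+ replicate 1 or 3. Gm45808 shares 12.2% of the Bax exon length on the same strand and had no read, and reads there cannot be told apart by position.

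Bak1 (ENSMUSG00000057789, chromosome 17, 27019810 to 27029009, minus strand) encodes the effector that sits in the mitochondrial membrane. It had 48.05, 50.7 and 46.5 CPM in Il22r-/-, against 53.3, 51.7 and 50.7 CPM in Il22r+/+. The groups met at their edges, and the log2 change of -0.10 ± 0.07 was not called (95% interval -0.26 to 0.07, edgeR adjusted p = 0.305). Ggnbp1, on the opposite strand, overlaps parts of the Bak1 exons and had 100 reads in Il22r-/- and 102 in Il22r+/+.

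**Figure D2:**
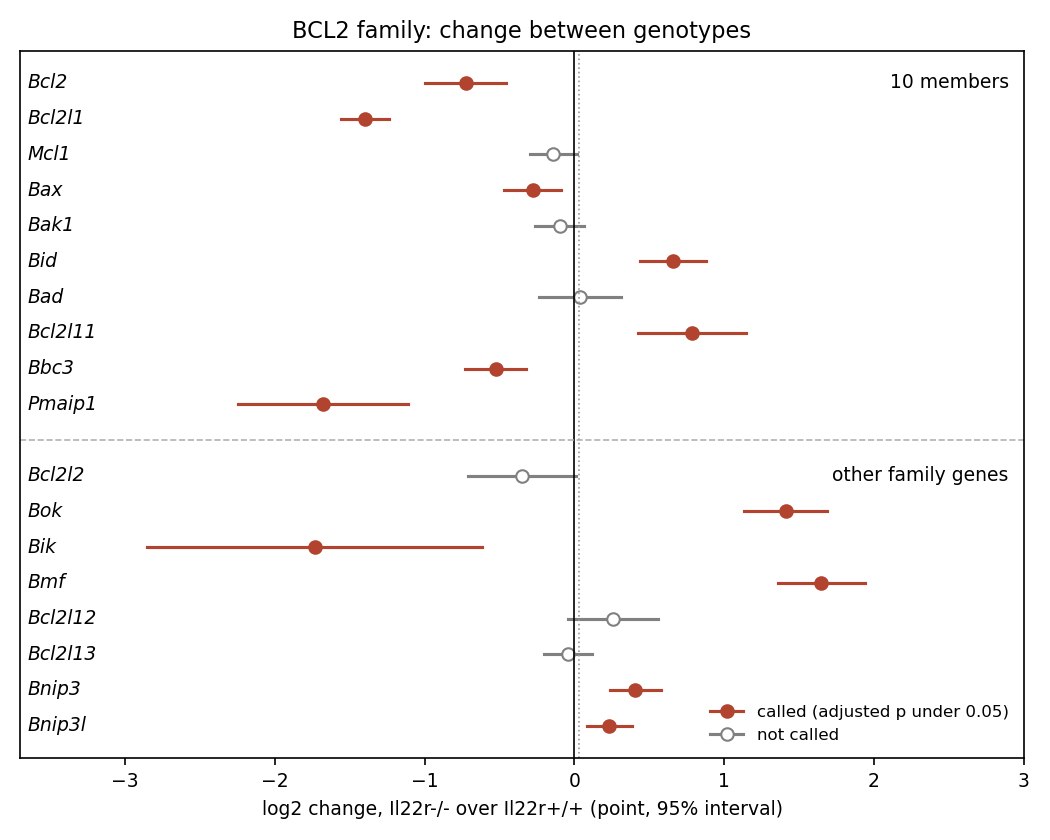
Log2 change (Il22r-/- over Il22r+/+) with 95% interval for the 10 members and the 8 tested other family genes; filled points were called, open points were not, and the dotted line is the median of all tested genes at 0.03. Bcl2l1, Pmaip1 and Bik lie farthest to the left, Bmf and Bok farthest to the right.

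Set against the effectors in the same library, Bcl2l1 was the survival gene whose ratio differed most. The FPKM ratio of Bcl2l1 to Bax was 0.375, 0.378 and 0.401 in Il22r-/- libraries 1 to 3, against 0.866, 0.865 and 0.785 in Il22r+/+ libraries 1 to 3. The ratio of Bcl2l1 to Bak1 was 0.896 ± 0.00666 in Il22r-/- and 2.21 ± 0.0839 in Il22r+/+. Relative to either effector Bcl2l1 was thus lower in every Il22r-/- library. The ratio of Bcl2 to Bax was 0.0233 ± 0.00245 in Il22r-/- and 0.0318 ± 0.00261 in Il22r+/+, also without overlap. The ratio of Mcl1 to Bax was 1.61 ± 0.170 in Il22r-/- and 1.46 ± 0.107 in Il22r+/+, and that of Mcl1 to Bak1 was 3.75 ± 0.271 in Il22r-/- and 3.85 ± 0.0957 in Il22r+/+; both overlapped between the genotypes. The effector relative Bok (34.5 FPKM in Il22r-/-, 13.2 FPKM in Il22r+/+) lies outside the sums that follow. So does the survival gene Bcl2l2 (13.5 FPKM in Il22r-/-, 17.6 FPKM in Il22r+/+). The 3 survival genes together stood at 1.41 ± 0.114 times the sum of Bax and Bak1 in Il22r-/- and 1.69 ± 0.0709 times in Il22r+/+. Such ratios do not depend on library scaling. They are given without a test, since 3 libraries against 3 cannot go below a p of 0.1 in an exact two-sided permutation test.

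**Figure D3:**
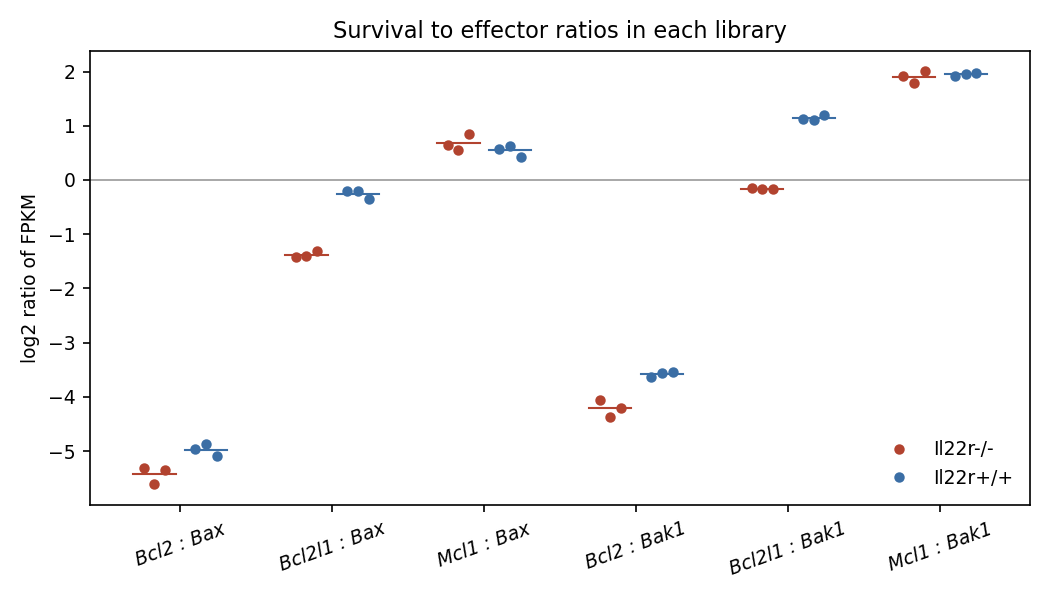
Log2 ratio of FPKM of each survival gene to Bax and to Bak1 in each library, Il22r-/- left of Il22r+/+; points are libraries and lines are means of 3. The Bcl2l1 to Bak1 ratio lies at -0.16 on the log2 scale in Il22r-/- and 1.14 in Il22r+/+, while the Mcl1 ratios overlap.

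Among the 5 BH3-only members, Bcl2l11 (ENSMUSG00000027381, chromosome 2, 128126038 to 128162547, plus strand) rose most. It encodes BIM, which binds every survival protein of the family. It had 20.95, 16.2 and 18.7 CPM in Il22r-/-, against 8.42, 11.7 and 12.3 CPM in Il22r+/+. The spread within Il22r+/+ was wide, 19.2% of the mean, yet the groups did not overlap. The log2 change was 0.78 ± 0.16 (95% interval 0.42 to 1.15, edgeR adjusted p = 0.00275), called in all 16 alternatives with adjusted p-values up to 0.0347. On the log2(FPKM + 1) scale it was 0.49. Per length, Bcl2l11 stood at 0.129 ± 0.0195 times Bcl2l1 in Il22r-/- and 0.0283 ± 0.00568 times in Il22r+/+.

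Bid (ENSMUSG00000004446, chromosome 6, 120891930 to 120916853, minus strand) encodes the protein that caspase 8 cuts to carry a death receptor signal to mitochondria. It had 30.5, 27.4 and 26.8 CPM in Il22r-/-, against 17.5, 17.9 and 18.2 CPM in Il22r+/+. Every Il22r-/- library lay above every Il22r+/+ library, with a log2 change of 0.66 ± 0.10 (95% interval 0.44 to 0.88, edgeR adjusted p = 0.000359) that was called in all 16 alternatives. The family gene Bcl2l13 lies on the other strand and covers 17.7% of its exon length. Bcl2l13 itself was not called, at 118 ± 6.95 CPM in Il22r-/- against 121 ± 4.07 CPM in Il22r+/+ (log2 change -0.04 ± 0.07, edgeR adjusted p = 0.665). No source used here says whether reads were counted by strand, so reads from the shared stretch cannot be told apart.

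Bad (ENSMUSG00000024959, chromosome 19, 6941861 to 6951899, plus strand) encodes a BH3-only protein that survival kinases silence by phosphorylation. It had 25.4, 27.5 and 19.97 CPM in Il22r-/-, against 24.6, 22.4 and 24.1 CPM in Il22r+/+. The groups overlapped, the lowest and the highest library both being Il22r-/-. The log2 change of 0.04 ± 0.12 was not called (95% interval -0.24 to 0.31, edgeR adjusted p = 0.831). Gpr137 covers 20.5% of its exon length on the other strand and had 1073 reads in Il22r-/- and 1576 in Il22r+/+.

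Bbc3 (ENSMUSG00000002083, chromosome 7, 16308393 to 16318205, plus strand) encodes PUMA, a BH3-only protein induced by p53 and by FOXO factors. It had 19.7, 21.4 and 21.5 CPM in Il22r-/-, against 30.1, 30.4 and 29.6 CPM in Il22r+/+. Both groups were tight and well apart, with a log2 change of -0.53 ± 0.09 (95% interval -0.73 to -0.32, edgeR adjusted p = 0.000925) that was called in all 16 alternatives.

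Bcl2l11 and Bbc3 are both textbook targets of FOXO factors. Bcl2l11 was called higher and Bbc3 lower, and a role of FOXO factors was not tested. A promoter window of each is shown because it holds the FOXO letters GTAAACA, searched on both strands and given in capitals. The 2 windows shown were the only ones to hold the letters among the 15 of the members, against 3.17% of all 32851 windows. So few windows cannot tell their share from that of all windows. The Bcl2l11 window lies at chr2:128125788-128126037 on the plus strand, with the match beginning 227 bases before the start. The Bbc3 window, before its second listed start, lies at chr7:16310011-16310260 on the plus strand, with the match on the opposite strand and beginning 167 bases before the start. A match of letters does not show binding.
Bcl2l11: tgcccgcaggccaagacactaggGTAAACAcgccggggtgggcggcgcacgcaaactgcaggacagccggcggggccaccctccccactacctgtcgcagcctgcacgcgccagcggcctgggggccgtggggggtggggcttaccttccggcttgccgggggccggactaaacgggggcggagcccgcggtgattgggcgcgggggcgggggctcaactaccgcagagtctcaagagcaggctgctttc
Bbc3: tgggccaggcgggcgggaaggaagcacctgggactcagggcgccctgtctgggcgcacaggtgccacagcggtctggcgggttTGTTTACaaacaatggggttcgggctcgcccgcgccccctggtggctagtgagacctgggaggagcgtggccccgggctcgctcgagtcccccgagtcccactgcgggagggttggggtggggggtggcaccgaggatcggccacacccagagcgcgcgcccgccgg

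Pmaip1 (ENSMUSG00000024521, chromosome 18, 66458533 to 66465565, plus strand) encodes NOXA, a BH3-only protein that binds MCL1. It was the scarcest member in Il22r-/-, with 24, 35 and 35 reads in libraries 1 to 3, against 106, 103 and 83 reads in the Il22r+/+ libraries. In CPM these were 1.26, 1.87 and 2.30 in Il22r-/- and 6.20, 6.15 and 4.92 in Il22r+/+. The groups were well apart in spite of the low counts. The log2 change was -1.68 ± 0.26 (95% interval -2.25 to -1.11, edgeR adjusted p = 0.000423), the widest interval of the 10 members, and all 16 alternatives called it lower. On the log2(FPKM + 1) scale the change was -0.93.

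The make-up of the 5 BH3-only genes differed with these changes, while their summed FPKM was 30.5 ± 1.22 in Il22r-/- and 32.8 ± 0.177 in Il22r+/+. Bbc3 held 32.6% ± 2.64 of that sum in Il22r-/- and 44.3% ± 0.591 in Il22r+/+. Bid held 26.3% ± 1.58 in Il22r-/-, against 15.8% ± 0.392 in Il22r+/+. Bcl2l11 held 7.67% ± 1.08 in Il22r-/- and 4.22% ± 0.825 in Il22r+/+, and Pmaip1 2.21% ± 0.722 in Il22r-/- and 6.60% ± 0.823 in Il22r+/+. Bad held 31.3% ± 3.64 in Il22r-/- and 29.0% ± 1.35 in Il22r+/+, with overlap. These shares were not tested. The BH3-only gene Bmf (6.07 FPKM in Il22r-/-, 1.97 FPKM in Il22r+/+) lies outside that sum. So does Bik (0.262 FPKM in Il22r-/-, 0.929 FPKM in Il22r+/+).

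**Figure D4:**
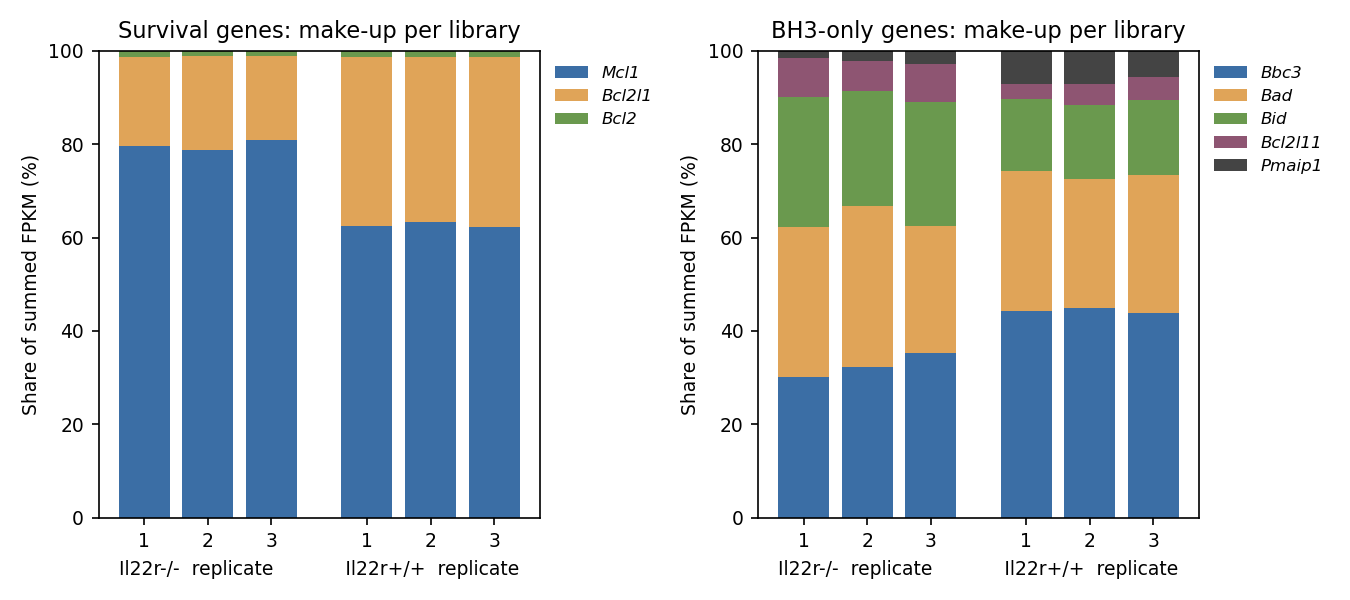
Share of the summed FPKM (percent, stacked to 100) of the 3 survival genes (left) and of the 5 BH3-only genes (right) in each library, Il22r-/- left of Il22r+/+. Mcl1 makes up 78.7% to 80.9% of the survival sum in Il22r-/- and 62.3% to 63.3% in Il22r+/+, and Bid takes a larger share of the BH3-only sum in each Il22r-/- library.

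Of 15 further family genes 8 were tested, of which 4 rose and 1 fell, with a median log2 change of 0.25, beside 45.7% called and a median of 0.03 among all genes. Bmf, a BH3-only gene, rose 3.13-fold: it had 35.4, 30.7 and 28.6 CPM in Il22r-/-, against 11.6, 9.67 and 9.0 CPM in Il22r+/+ (log2 change 1.65 ± 0.13, edgeR adjusted p = 5.54e-06). Bok, an effector relative of BAX that is well expressed in reproductive tissue, rose 2.66-fold, to 62.9 ± 8.81 CPM in Il22r-/-, against 23.7 ± 3.14 CPM in Il22r+/+ (edgeR adjusted p = 1.22e-05). Both were called in all 16 alternatives and exceeded Bid and Bcl2l11 in size of change. Bnip3 and Bnip3l, membrane receptors for the removal of mitochondria, rose 1.33-fold and 1.17-fold, the second losing its call in 5 of 16 alternatives.

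The BH3-only gene Bik fell, with 23 reads in all Il22r-/- libraries and 73 in all Il22r+/+ libraries (log2 change -1.73 ± 0.51, edgeR adjusted p = 0.0171). That call was lost in 3 of 15 alternatives, among them leaving out Il22r+/+ replicate 1 or 3, and its adjusted p-values ran from 0.00213 to 0.0846. On the log2(FPKM + 1) scale its change was -0.60. Bcl2l2, the survival gene that encodes BCL-W, had 66.3, 69.9 and 43.4 CPM in Il22r-/-, against 75.7, 73.4 and 80.1 CPM in Il22r+/+, and was not called (log2 change -0.35 ± 0.16, edgeR adjusted p = 0.106). Replicate 3 of Il22r-/- was the low library. Without it Bcl2l2 was called, although the Il22r-/- libraries left lay nearer to the Il22r+/+ values than replicate 3 did. Bcl2l2 was called in 4 of 16 alternatives, with log2 changes from -0.49 to -0.19 and adjusted p-values from 0.00101 to 0.273 over all of them. Bcl2l12 had 12.9 ± 1.70 CPM in Il22r-/-, against 10.8 ± 0.520 CPM in Il22r+/+, and was not called. The remaining 7 genes had too few reads for a test, and their reads are given to account for the whole list. Bcl2a1b, a survival gene of blood cells, had 3, 4 and 1 reads in Il22r-/- and none in Il22r+/+, and Bcl2a1a and Bcl2a1d had 1 and 4 reads in Il22r-/- and none in Il22r+/+; these copies are nearly identical in sequence, so their reads are uncertain. Over 3 libraries each, Hrk had 13 reads in Il22r-/- and 14 in Il22r+/+, and Bcl2l10 had 10 in Il22r-/- and 1 in Il22r+/+. Bcl2l14 had 5 reads in Il22r-/- and 10 in Il22r+/+, and Bcl2l15 had 1 in Il22r-/- and 6 in Il22r+/+.

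Upstream of Bid, 8 of the 9 listed genes of the death receptor arm were tested, of which none rose and 4 fell. Their median log2 change was -0.45. Among all tested genes 23.6% rose and 22.1% fell, with a median of 0.03. The death receptor Tnfrsf10b had 34.6 ± 6.12 CPM in Il22r-/-, against 75.2 ± 5.72 CPM in Il22r+/+ (log2 change -1.12 ± 0.12), and the TNF receptor Tnfrsf1a had 72.3 ± 1.07 CPM in Il22r-/-, against 130 ± 6.53 CPM in Il22r+/+ (-0.84 ± 0.07). Cflar, which blocks caspase 8, changed by -0.52 ± 0.07, and Casp8, the protease that cuts BID, by -0.38 ± 0.09. Bid was thus called higher while Casp8 was called lower. The ligand gene Fasl had no read in any library.

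Downstream of BAX and BAK, 5 of 12 genes of the apoptosome and caspases rose and 1 fell, with a median log2 change of 0.30. Beside them stand 23.6% higher, 22.1% lower and a median of 0.03 among all tested genes. Casp6, a caspase, fell (log2 change -0.73 ± 0.09), whereas Dffa, the inhibitor subunit of the caspase-activated nuclease, and Aifm1, a mitochondrial flavoprotein, rose (0.60 ± 0.12 and 0.51 ± 0.12). Cycs, which encodes cytochrome c and was chosen after its values were seen, rose at an edgeR adjusted p of 0.0497 and lost the call in 10 of 16 alternatives (adjusted p-values 3.87e-06 to 0.190). Among 5 caspase inhibitors Birc5, which also acts in mitosis, rose (1.36 ± 0.13) and the other 4 were not called.

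Of 13 tested transcription factors known to act on family genes, 4 rose and 5 fell, beside 23.6% higher and 22.1% lower among all genes. Myc, whose product can sensitise cells to death, had 213 ± 23.1 CPM in Il22r-/-, against 86.0 ± 5.39 CPM in Il22r+/+ (log2 change 1.31 ± 0.09). Stat3 had 134 ± 5.95 CPM in Il22r-/-, against 251 ± 12.5 CPM in Il22r+/+ (-0.91 ± 0.08). Foxo3 fell (-0.61 ± 0.10), as did Ddit3, a stress factor that represses Bcl2 (-0.50 ± 0.12). Ddit3 has 2 gene entries with overlapping exons, and the values are those of ENSMUSG00000025408 alone. Foxo1, chosen after its values were seen, rose (0.43 ± 0.12) and lost its call in 4 of 16 alternatives. Trp53, also chosen afterwards, rose (0.31 ± 0.08). Whether the change of any of these factors bears on a member was not tested. No protein activity was measured.

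Of 11 genes that act on the proteins of the family, none rose and 4 fell, with a median log2 change of -0.03. Bag3, a co-chaperone that stabilises MCL1, fell (-0.84 ± 0.10), as did Usp9x, a deubiquitinase of MCL1 (-0.47 ± 0.11). Tmbim6, an inhibitor of BAX-driven death, fell by 0.47 on the log2 scale (SE 0.08). Ywhaz, a 14-3-3 protein that holds BAD, changed by -0.24 ± 0.08 and lost its call in 8 of 16 alternatives. Over all pathway lists, 14 of 57 tested genes rose and 15 fell, beside 23.6% higher and 22.1% lower among all genes.

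**Figure D5:**
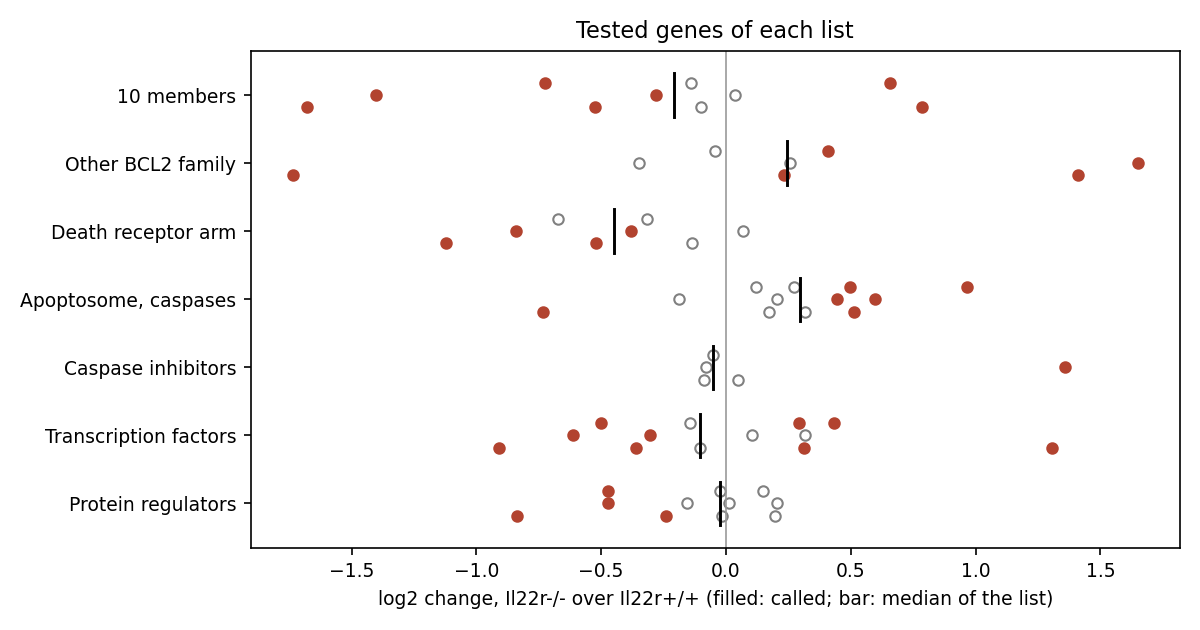
Log2 change (Il22r-/- over Il22r+/+) of every tested gene in the 10 members and the other lists; filled points were called, open points were not, and black bars are list medians. The list medians run from -0.45 for the death receptor arm to 0.30 for the apoptosome and caspases.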

How the data were processed

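Transcripts of cultured mouse granulosa cells were sequenced in 3 Il22r-/- and 3 Il22r+/+ libraries, grouped by title and genotype label. The authors deposited raw read counts per gene, made with featureCounts 1.5.0-p3 on mm10 per the submitters' processing notes, with strand setting and aligner (not given in the sources used here) left unnamed. Values in FPKM were also deposited by the authors and equalled the count divided by gene length and by 1 library total. That total was 1 to 1.05 times the summed counts in Il22r-/- libraries and 0.9365 to 0.9391 times in Il22r+/+ libraries. The TMM factors also differed by genotype, at 1.02 to 1.053 in Il22r-/- and 0.9629 to 0.9669 in Il22r+/+. Counts were filtered with filterByExpr, scaled by TMM and tested in edgeR 4.0.16 (robust quasi-likelihood, genotype as the only term), with Benjamini-Hochberg adjustment over 15227 genes and a threshold of 0.05. Log2 changes are Il22r-/- minus Il22r+/+, errors of levels are SD over 3 libraries, errors of log2 changes are SE, and intervals are 95%. P-values measure the spread between these libraries, which may be technical, since the labels name no separate animals.

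Alternatives used DESeq2 1.42.0, limma 3.58.1 (voom, and log2(FPKM + 1) or log2(FPKM + 0.1)), other scalings and filters, a replicate block, and each library left out. Simulated counts were used to test the edgeR step. Exon overlaps came from GENCODE M21, whose exon lengths and positions matched the deposited ones for all 10 members, and promoters from RefSeq GRCm38.p6. Members and lists were chosen with earlier results of these data known. Named by rule were all members, the tested family genes, the 4 largest called changes of each other list (fewer where fewer were called) and the 3 most abundant markers of each cell type. Some genes of these lists are counted but not reported by name here.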

Additional observations from a re-analysis of the deposited data

How the results depend on the processing

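Bcl2, Bcl2l1, Bid, Bcl2l11, Bbc3 and Pmaip1 kept their direction and their call in all 16 alternatives. Bax lost its call with library size alone (log2 change -0.17, adjusted p = 0.125), in limma on log2(FPKM + 1) with no filter (-0.30, adjusted p = 0.0574) and with the replicate block (-0.28, adjusted p = 0.0501), and its changes with 1 library left out ran from -0.34 to -0.22, the call ending without Il22r+/+ replicate 1 or 3; the adjusted p ran from 0.00896 to 0.125 over its alternatives. Mcl1 changed by -0.18 to -0.13 with 1 library left out, the call appearing without Il22r-/- replicate 3, and by -0.04 with library size alone. The uncalled genes near 0 changed sign: Bak1 was 0.0044 with library size alone, and Bad was -0.0023 on log2(FPKM + 1), with and without the filter, -0.0035 on log2(FPKM + 0.1) and between -0.075 and 0.14 with 1 library left out. The difference in the log2 ratio of Mcl1 to Bak1 ran from -0.089 to 0.015. Of the other pathway genes, 8 instead of 14 were called higher in limma on log2(FPKM + 1) with no filter. The causes were not tested.

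Same-numbered libraries deviated from their group means with correlations of 0.026, -0.0406 and -0.0278, against -0.0159 to 0.0481 for differently numbered ones. With 3 libraries per genotype these values cannot show whether libraries were paired. With the replicate block 4 members were lower and 2 higher. At 94 reads in all Il22r-/- libraries, depth limits Pmaip1 most among the members.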
